A study of Mus musculus with 8 samples.

Results

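Gene expression in 3 mouse embryonic stem cell lines made by tetraploid nuclear transfer, tNT lines 4, 5 and 6, was compared with that in NT lines 1 and 2, which were made by nuclear transfer. These are 5 of the 8 lines of the series, and the other 3 are tNT lines 1, 2 and 3, which were used to see which differences all tNT lines share. Nuclear transfer puts a somatic nucleus into an egg without its own nucleus, and according to the series title both nuclei of a tNT line were reprogrammed in the same ooplasm. RNA of each line was measured on 1 Illumina bead array. The tNT lines are labelled tetraploid and the NT lines not, and all 8 carry the labels mixed strain and double sedimentation, a term that is not explained. The design text gives tNT lines 4, 5 and 6 the numbers p29, p18 and p25 and tNT lines 1, 2 and 3 the numbers p17, p19 and p25, read here as passage, and gives none for the NT lines. The labels name no donor cell, sex, genotype or passage of the NT lines, so passage cannot be compared between the types of line. The arrays are scaled to a common distribution, so total RNA per cell, which may differ with ploidy, was not measured.

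Mouse embryonic stem cells in culture are naive: they correspond to the early epiblast and depend on transcription factors such as Pou5f1, Sox2, Nanog, Esrrb and Klf4. Before they differentiate they pass through a primed state, like that of the epiblast after implantation, in which Fgf5, Pou3f1 and Dnmt3b are high and from which cells of the primitive streak, with Fgf8, Wnt3a and Lhx1, arise. DNA methylation, which Dnmt3b helps to lay down, silences a group of germ line genes in the primed epiblast and in somatic cells.

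Lines 4 to 6 were chosen because they resemble each other. Over the genes tested, the normalized log2 intensities of their 3 pairs correlated by 0.989, 0.989 and 0.993, against 0.993 for the NT pair and 0.975 to 0.988 for the pairs among lines 1-3. The closest pair left out, lines 1 and 3, therefore lay just under the least close pair chosen. These correlations run across genes that all arrays share after scaling, and they describe the choice. The median SD of a gene was 0.13 log2 units in lines 4-6, 0.20 in lines 1-3 and 0.22 over all 6 tNT lines. The choice made the spread of lines 4-6 small, so p-values of their comparison with NT lines are too small. They are used below, with a threshold, to choose the genes described. The calls, counts and shares that rest on them are descriptions and support nothing. The p-values printed for single genes are those of all 6 tNT lines or of lines 1-3. Lines 1 to 3 are what the choice left over, and both comparisons share the 2 NT arrays. The difference between lines 4-6 and lines 1-3 was not tested, because the lines were separated by these same values.

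A probe was used where its detection p, its chance of arising from background, was under 0.01 on at least 2 of the 5 arrays, which 11213 of 25697 probes met. Of these, 609 met it on exactly 2 arrays, while 903 probes left out met it on exactly 1. They represent 8500 genes or unnamed probes, by the brightest probe of each. Between 10449 and 10969 probes were above background on an array. The stem cell markers Pou5f1, Sox2, Nanog, Zfp42, Esrrb, Sall4 and Dppa5a were detected on all 8 arrays. Of the 7 defining fibroblast markers, Col1a2, Col3a1 and Postn were detected on none, Col1a1, Thy1 and Dcn on all 8 and Lum on 6. Of the cumulus cell markers, Foxl2, Amh and Fshr were detected on none and Inhba on all 8. Of the endothelial and blood markers, Cdh5, Kdr and Gata1 were detected on none, Tek on all 8 and Hba-a1 on 2.

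In lines 4-6, 1132 of the 8500 (13.3%) passed an adjusted p of 0.05 against NT lines (limma), 588 higher (6.92%) and 544 lower (6.40%), and 264 of them differed by 2-fold or more. Groups that do not overlap were common: for 4265 of the 8500 (50.2%) lines 4-6 lay on one side of both NT lines. In lines 1-3 the same test called 53 (0.624%), 23 higher (0.271%) and 30 lower (0.353%). Over all 6 tNT lines it called 177 (2.08%), 87 higher (1.02%) and 90 lower (1.06%). These numbers depended on both NT lines, since with only NT line 2 left lines 4-6 had 174 calls and with only NT line 1 left they had 169. They also depended on tNT line 2, without which lines 1-3 had 236 calls and all tNT lines 614, and without line 1 or either NT line there was no call in lines 1-3, where with all lines 1466 (17.2%) had an unadjusted p under 0.05, against 2654 (31.2%) in lines 4-6.

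A difference was counted as shared by all tNT lines where lines 1, 2 and 3 each also lay beyond both NT values on the same side. This held for 652 of the 1132 called genes (57.6%), for 319 of the 588 that were higher (54.3%) and 333 of the 544 that were lower (61.2%). Another 315 (27.8%) were shared by 2 of the 3 lines, 109 (9.63%) by 1 and 56 (4.95%) by none. Among all 4265 genes with no overlap of lines 4-6 and NT lines, called or not, the share with all 3 lines was 44.1% and with none 8.58%. All lines are set against the same 2 NT arrays, so lines 1-3 are no independent repeat of the NT side.

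**Figure D1:**
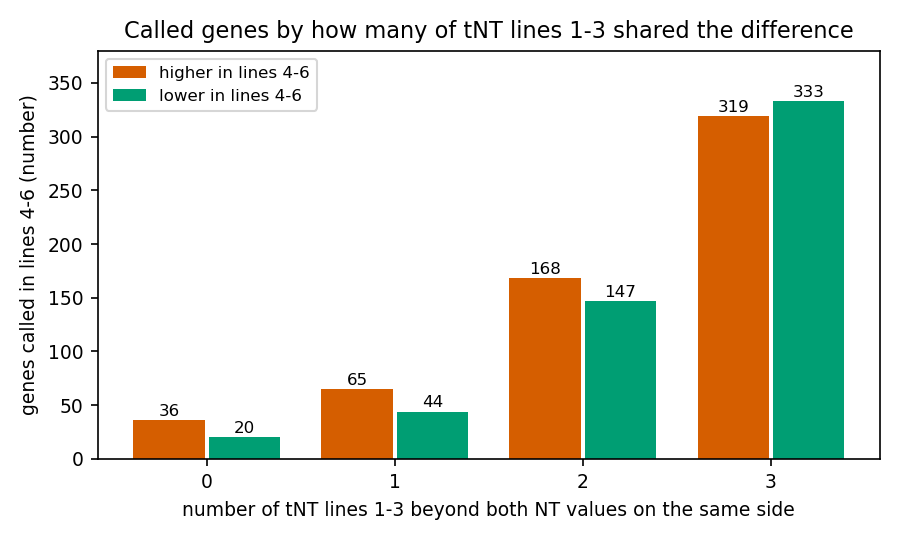
Number of genes called in tNT lines 4-6 against NT lines (y axis), by how many of tNT lines 1-3 lay beyond both NT values on the same side (x axis), for genes higher (orange) and lower (green) in lines 4-6. All 3 lines shared the difference for 319 higher and 333 lower genes, and none did for 36 and 20.

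Among the shared differences were low levels of signals and regulators of the primed epiblast and the primitive streak. Of 19 primed epiblast genes listed, 14 were measured, and all 14 had lower values in lines 4-6, though Zic2 differed by only -0.01 log2 units. Of the 14, 7 were called, against 13.3% of all genes, and 6 of the 7 were shared by all tNT lines. The median log2 difference of the 14 was -0.90, or -0.69 with undetected genes at their bounds (the difference from the lowest detected value in place of their own), and -0.38 in lines 1-3, against 0.00 over all genes in both. Of 21 mesoderm and streak genes 9 were measured, 8 with lower values and 4 called (44.4%, against 13.3% of all genes), all 4 shared. Their list median was -0.62 (-0.55 at the bounds). In these lists 3 and 4 measured genes were detected on no array of lines 4-6 and entered through the NT arrays alone, so their counts describe and do not test the lists.

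Fgf8, a ligand that guides cells through the primitive streak, had log2 intensities of 8.48 and 9.05 in NT lines, 4.89, 5.06 and 5.26 in lines 4-6 and 5.05, 5.90 and 4.64 in lines 1-3. It was far above background in both NT lines and, of the tNT lines, above it in 1 of lines 1-3 only, so that lines 4-6 were at least 9.92-fold lower. Like every gene undetected in lines 4-6, it passed the detection rule through the NT arrays, where it is high, so its values are given with no test. Fgf5, a ligand by which the primed epiblast is recognised, measured 7.72 and 7.53 in NT lines, 4.42, 4.78 and 5.01 in lines 4-6 and 6.01, 5.79 and 4.62 in lines 1-3. It was detected in lines 1 and 2 but in none of lines 4-6, which were at least 4.50-fold lower. Lhx1, a transcription factor of the streak, measured 6.07 and 6.17 in NT lines and between 4.40 and 4.79 in all 6 tNT lines, where it was never detected. It was at least 1.59-fold lower in lines 4-6 and at least 1.64-fold lower in lines 1-3. The signalling proteins Wnt8a and Wnt3a and the transcription factor Sall2 were also undetected in lines 4-6 and at least 1.92-fold, 1.47-fold and 1.63-fold lower there.

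Of the regulators that remained measurable, Dnmt3b, a DNA methyltransferase, measured 12.64 and 12.67 in NT lines, 10.59, 11.03 and 11.07 in lines 4-6 and 11.55, 12.30 and 10.67 in lines 1-3. All tNT lines were below both NT lines, by 3.38-fold in lines 4-6, with line 2 nearest to NT, and the difference over all 6 lines missed the threshold (adjusted p = 0.0896). A second Dnmt3b probe had log2 differences of -1.21 in lines 4-6 and -0.72 in lines 1-3. Pou3f1, a transcription factor of the primed state, had a mean of 9.15 in NT lines, the higher at 9.30, and measured 7.87, 7.76 and 7.74 in lines 4-6, but 8.45, 9.38 and 8.44 in lines 1-3, so line 2 was above both NT lines. Lin28a, which blocks maturation of let-7 microRNAs and rises toward the primed state, was evenly lower in all tNT lines. It measured 9.08 and 9.15 in NT lines, 7.83, 7.90 and 7.92 in lines 4-6 and 7.62, 8.15 and 7.98 in lines 1-3, a 2.35-fold difference in lines 4-6 (adjusted p = 0.00466 over all tNT lines).

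The paired keratins Krt8 and Krt18 of simple epithelia were lower in every tNT line. Krt18 measured 8.74 and 9.03 in NT lines, 6.30, 6.64 and 6.68 in lines 4-6 and 7.07, 7.32 and 6.74 in lines 1-3. Its partner in the filament, Krt8, measured 10.76 on both NT arrays, 8.35, 9.07 and 8.64 in lines 4-6 and 8.93, 9.34 and 8.59 in lines 1-3. The pair was 5.09-fold and 4.21-fold lower in lines 4-6 and 3.59-fold and 3.50-fold lower in lines 1-3 (limma, adjusted p = 0.0279 and 0.0348 in lines 1-3, 0.00436 and 0.00466 over all tNT lines). Krt19 was undetected in all 6 tNT lines and at least 1.31-fold lower in lines 4-6, while Krt7, with 6.43 and 6.44 in NT lines and 5.87, 6.88 and 5.97 in lines 4-6, was above them in line 5. Cldn6, a claudin of tight junctions, differed by -1.12 log2 units (adjusted p = 0.0585 over all tNT lines). In the list of 14 measured keratin and junction genes 4 were called (28.6%, against 13.3% of all genes), namely Krt8, Krt18, Krt19 and Cldn6. Krt18 and Cldn6 are also among the called primed epiblast genes, so the 2 lists are not separate findings. The median of the keratin and junction list was -0.44 in lines 4-6, or -0.29 at the bounds, and -0.76 in lines 1-3, with line 2 at -1.08.

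Genes of the actin cytoskeleton followed the same direction. Of 18 measured, 16 had lower values in lines 4-6 and 8 were called (44.4%, against 13.3% of all genes), 6 of them shared by all tNT lines. The list median was -0.57 in lines 4-6 and -0.26 in lines 1-3. Tpm1, a tropomyosin that winds along the actin filament, measured 11.63 and 11.61 in NT lines, 10.20, 10.40 and 10.30 in lines 4-6 and 10.53, 10.68 and 9.85 in lines 1-3 (2.49-fold lower in lines 4-6, adjusted p = 0.0136 over all tNT lines). Acta1, skeletal muscle actin, measured 7.67 and 7.41 in NT lines and between 6.04 and 6.34 in all 6 tNT lines (2.56-fold lower in lines 4-6, adjusted p = 0.00163 over all tNT lines and 0.0310 in lines 1-3). Cnn2, a calponin that binds actin, was 2.51-fold lower (adjusted p = 0.0101 over all tNT lines). Cardiac actin, Actc1, was undetected in lines 4-6 and at least 2.45-fold lower. For Zyx and Actn4, proteins of focal adhesions and actin bundles, line 2 did not lie beyond NT lines, and their log2 differences were -0.95 and -0.57.

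**Figure D2:**
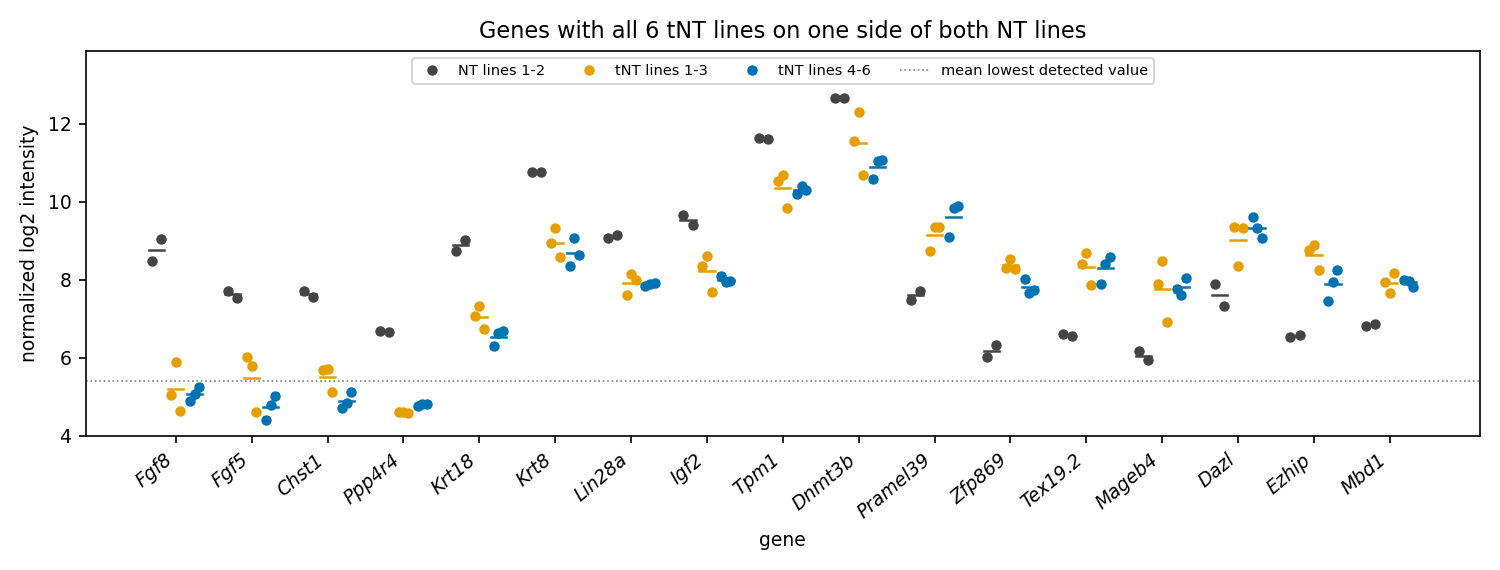
Normalized log2 intensity (y axis) of 17 genes at which all 6 tNT lines lay on one side of both NT lines (grey), with tNT lines 1-3 in orange and lines 4-6 in blue. Points are single arrays, short bars the group means, and the dotted line is the mean over arrays of the lowest detected value. Fgf8 falls from 8.48 and 9.05 in NT lines to below the dotted line in lines 4-6, while Tex19.2 and Ezhip lie higher in every tNT line.

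Among imprinted genes, which are read from the copy of a single parent, 14 were measured. In lines 4-6, 10 had lower values and 4 higher, and 6 were called lower and none higher (42.9%, against 13.3% of all genes called). Of the 4, Ndn and Igf2r lay above both NT lines in all 6 tNT lines. Ndn had log2 differences of 0.49 in lines 4-6 and 1.03 in lines 1-3. Igf2, a fetal growth factor, measured 9.67 and 9.41 in NT lines, 8.11, 7.94 and 7.96 in lines 4-6 and 8.36, 8.60 and 7.68 in lines 1-3, a 2.90-fold difference in lines 4-6 (adjusted p = 0.0164 over all tNT lines). Of the called decreases, only those of Igf2, Nnat and Peg3 were shared by all tNT lines. Nnat was detected in 1 of lines 4-6, and Peg3 was undetected in lines 4-6, at least 1.76-fold lower. At Mest, Peg10 and Snrpn line 2 was not below the NT lines. Mest, for example, measured 9.02 and 9.20 in NT lines, 8.20, 8.02 and 8.03 in lines 4-6, and 8.41, 9.63 and 8.41 in lines 1-3. The list median was -0.50 in lines 4-6, -0.31 and -0.55 in lines 1 and 3, and 0.25 in line 2.

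Of the gene lists, that of germ line genes held silent by DNA methylation had the most increases shared by all tNT lines. Of 26 listed, 15 were measured and 9 were called (60.0%, against 13.3% of all genes), all higher in lines 4-6. Of the 9, 8 were higher in all tNT lines. The other, Dpep3, was undetected in NT lines and passed the detection rule through lines 4-6 alone. The 4 members with lower values were not called. Of these, the X-linked homeobox genes Rhox6 and Rhox9 were below NT lines in all 6 tNT lines, with log2 differences of -2.19 and -1.91 in lines 4-6, larger than any increase of the list, and a wide spread (Rhox6 measured 8.86 and 8.76 in NT lines and 5.14, 7.42 and 7.30 in lines 4-6). Rhox5 and Magea2 differed by -0.31 and -0.65. The list median was 0.82 in lines 4-6, or 0.78 at the bounds, and 0.57 in lines 1-3. RefSeq promoters (build GRCm38.p6, from 250 bases before to 50 after the start) were given for 7 of the 9, and 4 are shown because the genes were higher together while their content of CG, the dinucleotide that carries methylation, differed widely. CG is in capitals in the first 3, and in the fourth the capitals mark CACGTG, the E-box, searched on this strand, which serves for both since the motif is its own reverse complement.
Dazl (chr17:50293571-50293870, minus strand): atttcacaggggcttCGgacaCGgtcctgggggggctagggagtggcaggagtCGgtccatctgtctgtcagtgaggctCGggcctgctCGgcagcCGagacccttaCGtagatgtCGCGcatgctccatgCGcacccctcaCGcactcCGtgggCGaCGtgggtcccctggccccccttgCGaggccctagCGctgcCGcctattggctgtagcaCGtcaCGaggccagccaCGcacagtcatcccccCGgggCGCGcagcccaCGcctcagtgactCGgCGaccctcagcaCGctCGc
Tex19.1 (chr11:121145893-121146192, plus strand): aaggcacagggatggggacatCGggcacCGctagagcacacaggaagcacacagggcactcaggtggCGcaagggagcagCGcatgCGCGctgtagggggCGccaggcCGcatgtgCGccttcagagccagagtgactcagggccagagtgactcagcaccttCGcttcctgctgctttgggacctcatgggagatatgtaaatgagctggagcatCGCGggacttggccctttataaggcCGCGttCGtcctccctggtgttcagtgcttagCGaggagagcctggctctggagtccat
Tex19.2 (chr11:121118628-121118927, minus strand): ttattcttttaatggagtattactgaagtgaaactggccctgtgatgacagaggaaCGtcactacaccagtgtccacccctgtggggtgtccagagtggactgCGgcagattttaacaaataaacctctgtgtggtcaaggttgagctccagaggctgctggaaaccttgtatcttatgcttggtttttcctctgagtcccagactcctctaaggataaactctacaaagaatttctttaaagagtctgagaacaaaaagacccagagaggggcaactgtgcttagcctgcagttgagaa
Taf7l (chrX:134476441-134476740, minus strand): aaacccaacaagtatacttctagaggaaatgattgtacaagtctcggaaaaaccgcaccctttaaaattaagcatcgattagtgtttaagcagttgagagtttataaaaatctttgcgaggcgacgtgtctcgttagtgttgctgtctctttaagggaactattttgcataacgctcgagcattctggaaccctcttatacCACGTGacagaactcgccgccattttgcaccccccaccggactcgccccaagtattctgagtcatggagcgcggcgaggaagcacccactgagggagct
The Dazl promoter holds 28 CG, against a median of 7 over the 27025 promoters of the table. Tex19.1 holds 16, Taf7l 17 and Tex19.2 only 2. Asz1, Dpep3 and Mageb4 hold 17, 12 and 11. CACGTG occurs in that of Taf7l alone among the 7, 49 bases before the start, and in 7.24% of all promoters. The array gives no methylation, so these counts describe the sequences only.

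Dazl, which binds and regulates mRNAs in germ cells, measured 7.90 and 7.33 in NT lines, 9.60, 9.33 and 9.08 in lines 4-6 and 9.36, 8.35 and 9.31 in lines 1-3, a 3.28-fold difference in lines 4-6 (adjusted p = 0.0324 over all tNT lines). Tex19.2 measured 6.60 and 6.55 in NT lines, 7.88, 8.40 and 8.59 in lines 4-6 and 8.41, 8.68 and 7.87 in lines 1-3. It was 3.28-fold higher in lines 4-6 and 3.34-fold higher in lines 1-3 (adjusted p = 0.0408 in lines 1-3), so its groups were equally far apart in both sets of lines. Its paralog Tex19.1, which acts against retrotransposons in germ cells and is well expressed in stem cells, started from 11.54 in NT line 1 and a like value in NT line 2 and was 1.77-fold higher in lines 4-6. The paralogs are similar in sequence, and how well the probes tell them apart was not tested. Piwil2, which works with small RNAs against transposons, measured 7.12 and 7.33 in NT lines, 8.71, 8.55 and 8.58 in lines 4-6 and 7.78, 7.88 and 8.15 in lines 1-3. Lines 4 to 6 thus lay above lines 1-3, and those above NT lines. Asz1, also of the piRNA pathway, and Taf7l, a germ cell transcription factor subunit, had the other order, with log2 differences of 1.12 and 0.78 in lines 4-6 and 1.70 and 1.32 in lines 1-3. Mageb4 and Tex11, both on the X chromosome, were 3.35-fold and 1.88-fold higher in lines 4-6.

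Other genes of the early embryo and germ line were higher too. Pramel39 measured 7.49 and 7.72 in NT lines, 9.09, 9.84 and 9.89 in lines 4-6 and 8.75, 9.36 and 9.36 in lines 1-3 (4.02-fold in lines 4-6, adjusted p = 0.0453 in lines 1-3). Pramel37 was 3.38-fold higher, and these are 2 of the 3 measured members of the Pramel family, a large group of similar genes whose probes may share targets. Both were called (66.7% of the 3, against 13.3% of all genes). The third, Pramel13, was not called and went the other way, with log2 differences of -0.48 in lines 4-6 and -0.22 in lines 1-3. Of 7 measured genes of the 2-cell-like state, which resembles the cleavage-stage embryo, Tmem92 and Tcstv1 were called (28.6%, against 13.3% of all genes). They were 2.30-fold and 1.93-fold higher and shared by all tNT lines (limma, adjusted p = 0.0229 and 0.0361 over all tNT lines). The list median was 0.84, but 0.38 with the member undetected in NT lines at its bound.

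Among regulators of chromatin marks, 3 of 11 DNA methylation genes (27.3%) and 1 of 9 PRC2 genes (11.1%) were called, against 13.3% of all genes. Ezhip, a germ cell protein that blocks the Polycomb complex PRC2, measured 6.53 and 6.59 in NT lines, 7.46, 7.94 and 8.25 in lines 4-6 and 8.75, 8.90 and 8.26 in lines 1-3. It was 2.50-fold higher in lines 4-6 and 4.22-fold in lines 1-3 (adjusted p = 0.0226 in lines 1-3), while no PRC2 subunit of the 9 genes measured was called. Mbd1, which binds methylated DNA, was 6.80 and 6.87 in NT lines and between 7.65 and 8.18 in all 6 tNT lines (adjusted p = 0.00718 over all tNT lines). Dnmt3l, the cofactor of Dnmt3b, had a log2 difference of -0.44 in lines 4-6 and lay above the NT lines in line 2. The median of the 11 measured DNA methylation genes was -0.01.

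Of 23 naive pluripotency genes measured 7 were called (30.4%, against 13.3% of all genes), 6 higher and 1 lower. The lower one is Lin28a, counted in this list though described above as rising toward the primed state. The list median was -0.02 in lines 4-6 and 0.04 in lines 1-3. Pou5f1 was 12.59 and 12.52 in NT lines and 12.42, 12.28 and 12.38 in lines 4-6. The log2 differences of Sox2 and Zfp42 in lines 4-6 were -0.08 and -0.21, and for both lines 4-6 overlapped NT lines. Klf5, Fbxo15 and Klf4 were higher in all tNT lines. Klf5, a Krüppel-like factor, was 12.19 and 12.34 in NT lines and between 12.81 and 12.93 in every tNT line, and Fbxo15, a target of Pou5f1 and Sox2, was 1.55-fold higher in lines 4-6 (adjusted p = 0.0270 and 0.0384 over all tNT lines). Klf4 was 2.01-fold higher in lines 4-6 but ranged from 10.62 in line 2 to 12.09 in line 3 (adjusted p = 0.153 over all tNT lines). Nanog and Esrrb were 1.39-fold and 1.43-fold higher in lines 4-6 and did not exceed NT values in line 2. Each lost its call in 9 of 15 alternatives.

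Glycolysis and hypoxia genes had higher values for 17 of 21 measured, 6 of them called (28.6%, against 13.3% of all genes). The list median was 0.37 in lines 4-6, 0.33 and 0.19 in lines 1 and 3, and -0.13 in line 2. Pfkp, a phosphofructokinase, measured 9.48 and 9.46 in NT lines, 10.59, 10.46 and 10.70 in lines 4-6 and 10.84, 9.92 and 11.07 in lines 1-3. Pfkp, the glucose transporter Slc2a1 and the oxygen sensor Egln3 were shared by all tNT lines, with adjusted p-values over all tNT lines of 0.0540, 0.0613 and 0.121. The enzymes Aldoa, Aldoc and Pgk1 were not. Oxidative phosphorylation genes had a median of 0.04 with 1 of 22 called (4.55%). Cholesterol synthesis genes had a median of -0.19 with 1 of 15 called (6.67%), Msmo1, which was higher.

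Some genes differed past the threshold in lines 1-3 too, the lines that the choice left over. The 4 with tests named next were picked from these genes after their values were seen. Ppp4r4, a subunit of protein phosphatase 4, was 6.69 and 6.65 in NT lines, undetected in all 6 tNT lines and at least 2.33-fold lower in lines 4-6 and at least 2.41-fold lower in lines 1-3, a gene measured through the NT arrays alone and so given with no test. Dok2, an adaptor of tyrosine kinase signalling, measured 8.39 and 8.21 in NT lines, 6.30, 6.64 and 6.65 in lines 4-6 and 6.08, 6.58 and 5.83 in lines 1-3 (limma, adjusted p = 0.0272 in lines 1-3). Flt1, a receptor of vascular growth factor, and Nrarp, a target and inhibitor of Notch signalling, were also lower, with log2 differences of -1.58 and -1.08 in lines 4-6 (adjusted p = 0.0390 and 0.0310 in lines 1-3). Zfp869, a zinc finger protein, was 6.03 and 6.32 in NT lines, 8.01, 7.67 and 7.74 in lines 4-6 and 8.31, 8.53 and 8.29 in lines 1-3 (adjusted p = 0.0104 in lines 1-3). Each of these 4 calls in lines 1-3 is lost without NT line 1, NT line 2 or tNT line 1. So are those given above for Krt8, Krt18, Acta1, Tex19.2, Pramel39 and Ezhip in lines 1-3.

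Some of the largest differences of lines 4-6 were absent from lines 1-3 or far smaller there. Cops8, a subunit of the COP9 signalosome, which removes Nedd8 from ubiquitin ligases, was undetected on both NT arrays (5.12 and 5.21) and in lines 1-3 (5.13, 5.19 and 4.57). In lines 4-6 it measured 9.83, 10.02 and 10.02, at least 24.4-fold higher than NT lines. None of the other 8 COP9 genes measured was called, against 13.3% of all genes. Olig1, a transcription factor of oligodendrocytes, had the same shape, with 9.29, 9.05 and 9.04 in lines 4-6, no detection on any other array, and a difference of at least 13.7-fold. Cops8 and Olig1 passed the detection rule through lines 4-6 alone, where they are high, so their values are given with no test. In the opposite direction, Psmd8, a lid subunit of the proteasome, measured 10.28 and 10.04 in NT lines, 10.19, 10.34 and 10.18 in lines 1-3, and 7.18, 7.33 and 6.95 in lines 4-6, an 8.04-fold difference. Of the 27 proteasome genes measured 11.1% were called, against 13.3% of all genes. Besides Psmd8 these were Psmb5, higher by 0.88, and Psmb6, with a difference of -0.59, and the list median was -0.09. 2210409E12Rik, a gene given here by its clone name, measured 10.25 and 10.47 in NT lines, 10.23, 9.66 and 10.76 in lines 1-3, and 5.58, 5.95 and 5.70 in lines 4-6. Lines 4-6 were 24.5-fold lower than NT lines. Lines 1 and 2 were also below both NT values, by far less, and line 3 was above both.

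Atf4, the transcription factor of the amino acid and endoplasmic reticulum stress response, measured 6.64 and 6.83 in NT lines, 10.11, 9.77 and 9.83 in lines 4-6 and 6.16, 6.68 and 6.44 in lines 1-3. Lines 4 to 6 were 8.99-fold above NT lines, and lines 1-3 overlapped NT lines or lay below them. Of 23 measured genes of this response, Atf4 included, 5 were called (21.7%, against 13.3% of all genes), all higher and none shared by all tNT lines. Chac1, an Atf4 target that degrades glutathione, measured 8.81 and 9.13 in NT lines, 10.57, 10.29 and 10.19 in lines 4-6 and 8.42, 8.99 and 8.54 in lines 1-3. Herpud1, a protein of endoplasmic reticulum quality control, was 1.70-fold higher in lines 4-6, and its second probe had nearly the same log2 difference, 0.75 beside 0.77. Aldh18a1, of proline synthesis, and Nars, the asparagine tRNA synthetase, were 1.54-fold and 1.33-fold higher. The list median was 0.12 in lines 4-6, -0.07 in lines 1-3 and 0.00 over all genes.

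Uap1, of amino sugar synthesis, measured 6.33 and 6.63 in NT lines, 8.80, 8.75 and 8.80 in lines 4-6 and 6.45, 6.49 and 5.84 in lines 1-3. Tomm22, a receptor of mitochondrial protein import, measured 6.58 and 6.25 in NT lines, 9.10, 8.89 and 8.69 in lines 4-6 and 6.39, 6.48 and 6.60 in lines 1-3. Both were above all other arrays in lines 4-6, at 4.93-fold and 5.57-fold of NT lines. Apoa2, an apolipoprotein undetected in NT lines, was at least 4.43-fold higher in lines 4-6, and Tesc, a calcium-binding protein also undetected in NT lines, at least 3.19-fold. Apoa2 and Tesc, too, passed the detection rule through lines 4-6 alone, where they are high. Tesc was detected in lines 1 and 3 as well, at 5.39 and 5.77, above both NT values. Thap4, Rps15a, Rgcc, Esd and Gpx2 were 2.82-fold, 2.70-fold, 3.79-fold, 3.10-fold and 2.89-fold higher with none of lines 1-3 above NT lines. Selenoi, of phospholipid synthesis, was 2.36-fold lower and Zfp420 at least 1.31-fold lower on the same terms.

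**Figure D3:**
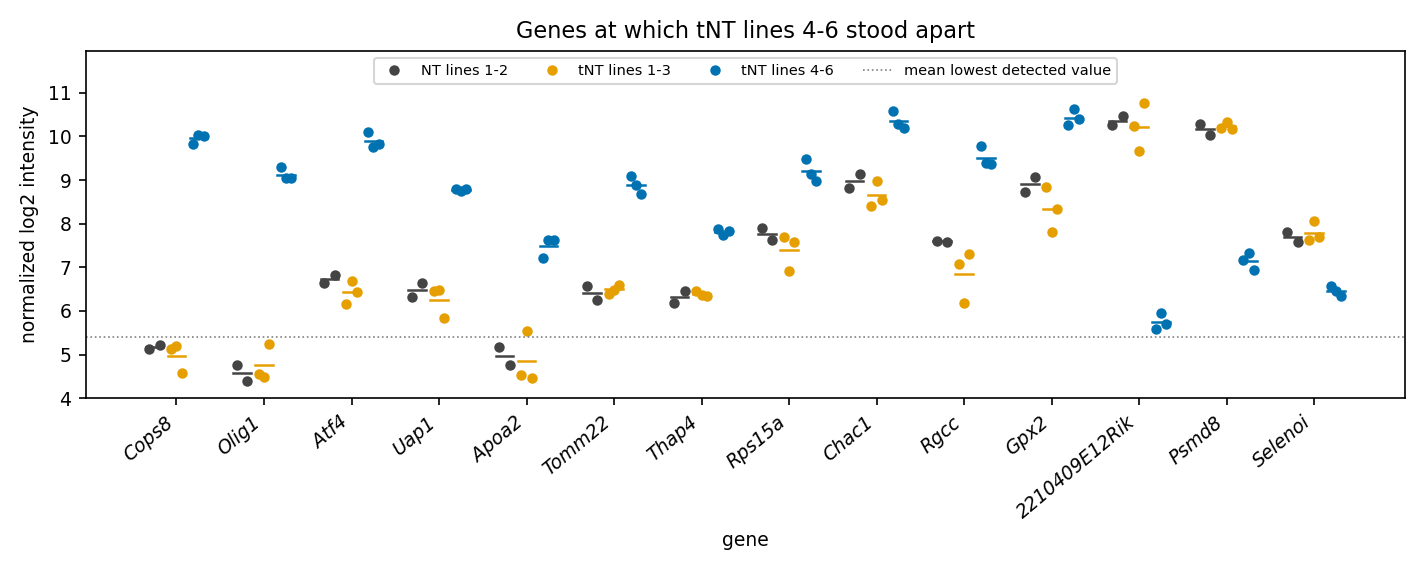
Normalized log2 intensity (y axis) of 14 genes at which tNT lines 4-6 (blue) lay apart from NT lines (grey) and tNT lines 1-3 (orange). Points are single arrays, short bars the group means, and the dotted line is the mean over arrays of the lowest detected value. Cops8, Olig1 and Apoa2 lie near or below that line outside lines 4-6, and Psmd8 falls from above 10 to about 7.

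Probes bear on these genes directly, since each gene was read from its brightest. Among called genes, 215 had another probe that passed the detection rule, and in 200 of them (93.0%) that probe differed in the same direction, against 77.9% of all 1999 such genes tested. Among called genes with none of lines 1-3 beyond NT lines it did so in 4 of 6 (66.7%). The 30 named genes with a 2-fold call and at most 1 of lines 1-3 beyond NT lines could rarely be examined this way. Of the 30, 26 (86.7%) have a single probe on the array, against 61.4% of all named genes tested, and only Sox21 had another probe that passed. Cops8, Olig1, Atf4 and Psmd8 each rest on 1 probe.

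Guanylate-binding proteins were lower in lines 4-6 and not in line 2. The guanylate-binding protein Gbp2, an interferon target, measured 8.84 and 8.92 in NT lines, 5.16, 6.03 and 5.58 in lines 4-6 and 7.04, 8.95 and 5.00 in lines 1-3. Gbp2, Gbp2b and Gbp3 were 9.77-fold, 4.31-fold and 2.02-fold lower in lines 4-6 and not lower in line 2. Gbp2 was detected in 2 of lines 4-6 and Gbp2b in 1, so their folds rest partly on values at background. Isg15, a ubiquitin-like interferon product, was lower in all tNT lines (4.00-fold in lines 4-6, limma, adjusted p = 0.0814 over all tNT lines). Of 13 interferon response genes measured 4 were called lower, and 1 was called higher, Ifi27, by 0.44 on the log2 scale (38.5% called, against 13.3% of all genes). Of 17 immediate early and growth factor response genes 5 were called lower and 2 higher, Spry4 and Etv5 (41.2% called, against 13.3% of all genes). Jun, Egr2 and Npas4 were among the lower genes and were lower in all tNT lines. Egr2, a zinc finger factor, had a log2 difference of -1.23 (adjusted p = 0.0164 over all tNT lines), and Npas4 was undetected in lines 4-6 and at least 1.85-fold lower. Carbonic anhydrases Car4 and Car2 were 14.1-fold and 6.41-fold lower in lines 4-6, Car4 being detected in 2 of them, and were lower in all tNT lines.

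Wnt target genes were divided. Notum, a secreted inhibitor of Wnt ligands, was 6.32 and 5.73 in NT lines, 7.52, 7.41 and 7.64 in lines 4-6 and 7.40, 7.30 and 6.95 in lines 1-3 (adjusted p = 0.0132 over all tNT lines). Axin2, the feedback inhibitor inside the cell, had a log2 difference of -0.66 (adjusted p = 0.0381 over all tNT lines) and the transcription factor Sp5 of -1.36 (adjusted p = 0.0661 over all tNT lines). All 4 called Wnt targets of 7 measured (57.1%, against 13.3% of all genes) were shared by all tNT lines, 2 higher and 2 lower. The second higher one, Apcdd1, had a log2 difference of only 0.45 (adjusted p = 0.120 over all tNT lines) and lost its call in 13 of 15 alternatives. Among p53 targets, 1 of 19 was called (5.26%, against 13.3% of all genes), Pmaip1, an inducer of apoptosis. It measured 7.20 and 7.36 in NT lines, 8.96, 8.80 and 8.75 in lines 4-6 and 7.44, 7.88 and 7.52 in lines 1-3, so the difference was shared in direction and smaller there. Cdkn1a, the p53 target that stops the cell cycle, had a log2 difference of 0.29. Pttg1, securin, was the single call among 18 spindle checkpoint genes (5.56%), at 2.81-fold higher. No centrosome gene of 15 and no lysosome gene of 14 was called. At the share over all genes, 13.3%, lists this short hold few calls. Such counts therefore do not show that these functions were unchanged.

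Fibroblast markers had no call among 14 measured, against 13.3% of all genes, with a median of -0.08 in lines 4-6. In line 2 the median was 0.76, and in lines 1 and 3 it was 0.18 and -0.07. Thy1 and Dcn were 9.69 and 9.53 in line 2, above every other array, and Col1a1 was 6.95 in line 2, 6.85 in line 1 and between 5.77 and 6.51 on the other arrays. Line 2 was also the line that did not share the difference at 232 of the 315 called genes shared by 2 of lines 1-3 (73.7%), and the part of fibroblast RNA in this was not tested. In bulk samples, fewer cells of a type and less RNA per cell cannot be told apart.

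**Figure D4:**
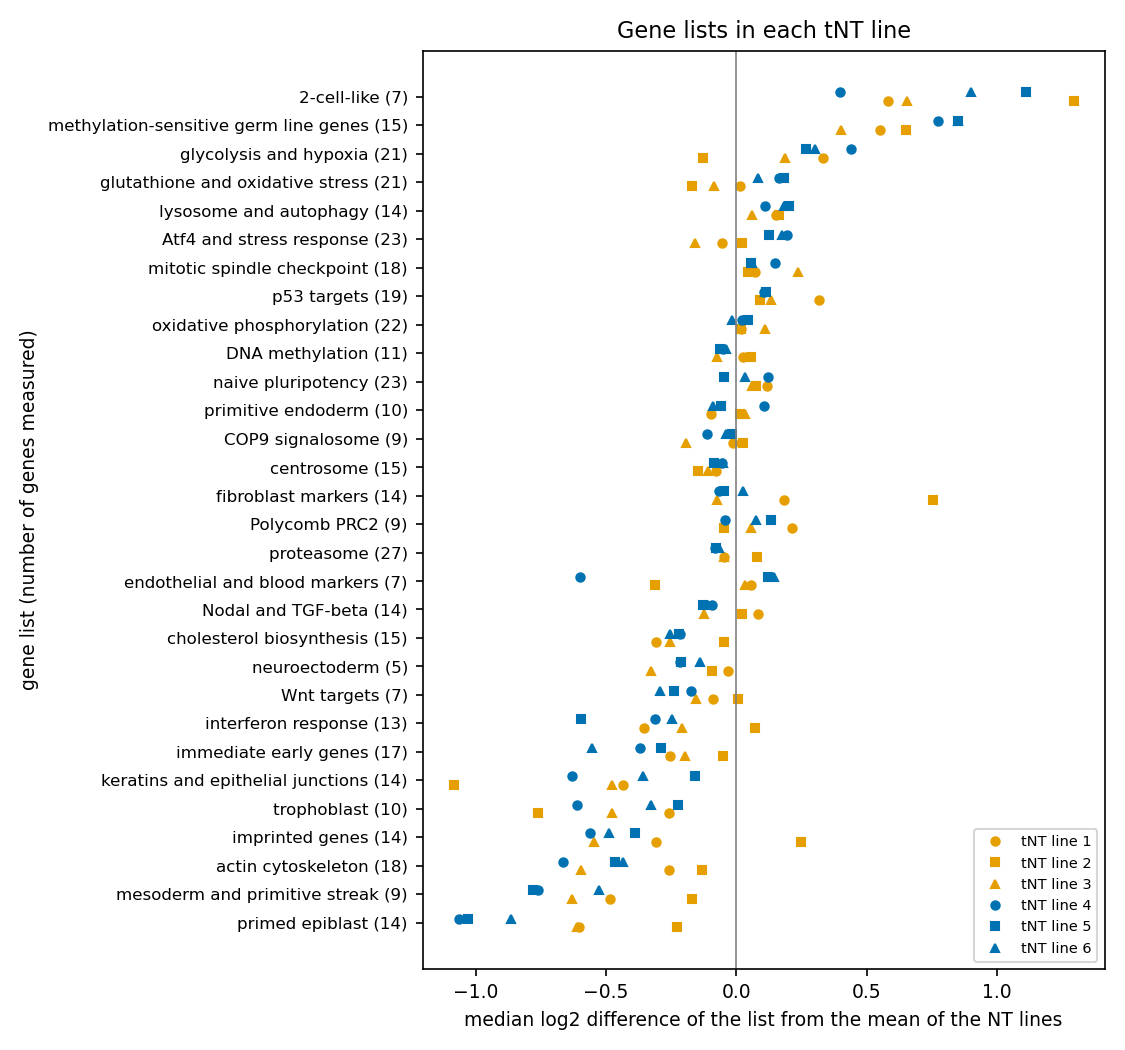
Median log2 difference from the mean of the NT lines (x axis) of 30 gene lists with at least 5 measured genes (y axis, number measured in brackets), 1 point per tNT line, lines 1-3 in orange and lines 4-6 in blue. Primed epiblast genes lie below 0 in all 6 lines and germ line genes above 0, while line 2 lies apart for imprinted genes (0.25) and fibroblast markers (0.76).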

How the data were processed

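Labelled cRNA of 6 tNT and 2 NT lines was measured on Illumina bead arrays. The authors deposited a bead intensity per probe and array, without normalization, with a detection p-value for each (both per the file headers). A second deposited table holds the authors' log2 values of the same arrays, whose columns all have a median of 3.49. BeadStudio 3.2, RMA and lumi are named by the submitters' processing notes, their roles unstated. Background step and build are not given in the sources used here, and the column names give no chip, so no batch could be examined. Every per-sample column was used (0 left out).

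Intensities of all 8 arrays were background-corrected from the detection p-values, quantile normalized and put on the log2 scale with neqc (offset 16, limma 3.58.1, R 4.3.3). The platform annotation names 1 gene for 23978 probes, several for 0 and none for 1719, and 23962 were matched by gene identifier to RefSeq (GRCm38.p6). Of the 8500 tested, 7859 have a name. The fits used limma's lmFit and eBayes (two-sided) with Benjamini-Hochberg adjustment over the 8500 and a threshold of 0.05, in 3 fits: lines 4-6 against NT lines, lines 1-3 against NT lines and all 6 against NT lines. Where a gene was detected on no array of a group, "at least" compares the other group with the lowest detected value of each array, or with its own value where that is higher, as means of normalized log2 values. The fits were checked on simulated data. Tables were joined and drawn in Python 3.11.15 (numpy 2.4.6, pandas 2.3.3, matplotlib 3.10.9).

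Named genes are the 12 largest increases and decreases among called genes of lines 4-6, the 8 largest of each with 0 of lines 1-3 beyond NT lines, up to 4 called members of each list by p, and 20 genes fixed by name. Of these 20, Trp53 has no named probe used here, and Xist and Uty did not pass the detection rule. Further called members of a list (such as Sall2, Cnn2, Actn4, Peg3, Asz1, Taf7l, Tex11, Klf5, Slc2a1, Egln3 and Nars), the markers Thy1 and Dcn and the genes of the closing sections were named after their values were seen. The members, the 33 gene lists and the alternatives were chosen with earlier results of these data known. Alternatives were other normalizations and detection filters, all probes, another variance model, 1 fit of 3 groups, leaving out each line, a replicate block by line number and, added later, calls of 2-fold or more. Beyond the line numbers no label speaks of separate cultures, so p-values measure the spread between these arrays, which may be technical. The number of arrays limits the precision.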

Additional observations from a re-analysis of the deposited data

Results flagged for a closer look

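For named genes and list medians, 143 sets of 6 tNT values were examined, and in 16 a line lay apart by Dixon's ratio, the gap to its neighbour as a share of the whole range. In 15 of the 16 that line was tNT line 2, in 1 it was line 1, and in 0 it was one of lines 4-6. Chance gives such a gap in about 1 in 20 sets of unselected lines, and these sets share the same 6 arrays. Lines 4-6 were selected for their resemblance, and most named genes were called in them, which favours a small spread there. Neither the 0 nor the 15 can therefore be compared with that rate.

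In line 2 the ratio was 0.719 for Dab2, 0.755 for Mest, 0.755 for Peg10, 0.693 for Zyx, 0.817 for Npas4, 0.683 for Spry4 and 0.685 for Gsto1, all of which were higher there than in the other tNT lines. It was 0.706 for Gsc, 0.811 for Aldoa, 0.672 for Nanog and 0.658 for Esrrb, which were lower there. Among list medians it was 0.686 for imprinted genes, 0.648 for cholesterol biosynthesis, 0.784 for the proteasome and 0.690 for fibroblast markers in line 2, and 0.821 for p53 targets in line 1.

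At 14 of the 1132 called genes lines 1-3 all lay on the other side of both NT lines from lines 4-6. The same was not counted among the 4265 genes with no overlap, so whether 14 is many cannot be said. Of the 14, 2 are named genes, higher in lines 4-6 and lower in lines 1-3, and the difference was not tested. Rgcc, a regulator of the cell cycle, measured 7.61 and 7.57 in NT lines, and its log2 difference was 1.92 in lines 4-6 and -0.74 in lines 1-3. Esd, an esterase, measured 6.57 and 6.56 in NT lines, and its log2 difference was 1.63 in lines 4-6 and -0.35 in lines 1-3.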

How the results depend on the processing

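The 1132 calls in lines 4-6 became 1751 with no background correction, 704 with no detection filter, 1801 with eBayes trend and robust, 509 in 1 fit of 3 groups, 264 at 2-fold or more (chosen after seeing the data) and 169 to 1154 with a line left out, and stayed within 1.5 times under the other alternatives. The 53 calls in lines 1-3 became 6 with the authors' values, 100, 8, 119 and 231 under the first 4 of those settings, and 0 to 236 with a line left out. The 177 calls over all tNT lines were 6 to 614 with a line left out, and 161 with a replicate block by line number, in which lines 1 and 2 of both types share a number. No paired analysis of lines 4-6 was possible because they share no line number with NT lines. The 652 shared genes became 424 with no filter, 983 with trend and robust, 381 in 1 fit of 3 groups and 117 to 884 with a line left out. The agreement of probes was 93.55% to 96.33% with a line left out. Of 102 named genes called, 91 kept the call with the authors' values, 69 in 1 fit of 3 groups, 51 without NT line 1 and 55 without NT line 2, and none of the 102 changed direction. Uncalled genes did: with a line left out the log2 difference of Sox2 ran from -0.1579 to 0.05468 (above 0 without tNT line 5) and that of Col1a1 from -0.1312 to 0.1084 (above 0 without tNT line 4, and 0.0132 when NT line 1 was left out). Signal over background limits genes undetected in a group, for which only a bound of the fold can be given.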

Other observations

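The X chromosome held 264 tested genes, of which 42 were called in lines 4-6 (15.9%, against 13.3% of all genes), 34 higher and 8 lower (over all genes 6.92% were called higher and 6.40% lower), with a median log2 difference of 0.10 in lines 4-6 and 0.06 in lines 1-3. The lean was not particular to the X: chromosome 1 had 32 called higher and 12 lower (12.2%), and chromosome 13 had 33 higher and 15 lower (17.5%). Chromosome 17 leaned the other way, with 16 called higher and 44 lower (14.7%) and a median of -0.11, against -0.04 in lines 1-3. Of the 374 genes of chromosome 10, 7 were called higher and 26 lower (8.82%), with medians of -0.07 in lines 4-6 and -0.19 in lines 1-3. Chromosome 14 had the highest share of calls, 20.6% of 267. Genes of 1 chromosome are not independent, and no test was made.

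The Y-linked gene Uty was detected in tNT lines 1, 2, 3 and 6 and on no other array, with log2 intensities of 5.58, 5.81, 5.67, 5.16, 5.27 and 5.47 in lines 1-6 and 4.85 and 4.79 in NT lines. No other Y-linked probe and no Xist probe was detected on any array.

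Some of the 30 genes at which lines 4-6 stood apart lie near each other in RefSeq gene order, a pattern looked for after seeing the data. Between Atf4 and Tomm22, both higher and on chromosome 15, lie 15 protein-coding genes. Between Miip and Agtrap on chromosome 4, both higher by 1.30, lie 8, and between Uap1 and Apoa2 on chromosome 1 lie 22. Psmd8 and Zfp420 on chromosome 7, both lower, have 14 between them, and Esd and Rgcc on chromosome 14, both higher, have 29. Tenm4 and Myo7a on chromosome 7, with 15 between, differed in opposite directions. Of 17 pairs of neighbours in the set, these 6 have fewer than 50 genes between them. How often other sets of 30 genes do so was not tested.

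Primitive endoderm genes were divided in lines 4-6. Gata6, a transcription factor of that lineage, measured 6.59 and 6.37 in NT lines, was undetected in lines 4-6 and was at least 2.04-fold lower there. Sox7, another, measured 5.04 and 5.42 in NT lines, 6.59, 7.06 and 6.70 in lines 4-6 and 5.80, 5.70 and 5.45 in lines 1-3. Aqp9, a channel for water and glycerol, was 5.64 and 5.52 in NT lines, 7.59, 7.51 and 7.65 in lines 4-6 and 6.69, 7.61 and 6.81 in lines 1-3 (limma, adjusted p = 0.0180 over all tNT lines). Dlgap5, a spindle protein, was 4.68-fold higher in lines 4-6, at 8.06, 8.17 and 7.66, against 5.35 and 6.13 in NT lines and 6.33, 6.38 and 6.22 in lines 1-3.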
